A study of Homo sapiens with 16 samples.

Results

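The BCL2 family was examined as 10 genes, BCL2L1, BCL2L2, MCL1, BAX, BAK1, BAD, BID, BCL2L11, BCL2L12 and PMAIP1, taken by symbol from the gene count table of the YEATS2 knockdown (KD) experiment. All 10 were among the 12676 genes of the table, and all 10 were tested. Proteins of this family decide whether the outer mitochondrial membrane is breached in the intrinsic pathway of apoptosis. BAX and BAK1 form the pore, anti-apoptotic relatives such as MCL1 hold them in check, and BH3-only proteins, which carry a single short BCL2 homology motif, either bind the anti-apoptotic proteins or activate the pore formers directly. Lung cancer cells commonly lean on MCL1 and BCL-xL, the long protein of BCL2L1, for survival.

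RNA-seq was performed in H1299, a line of human lung cancer cells of the non-small cell type, with 2 control (shCtrl, a non-targeting shNT vector) and 2 YEATS2 KD (shYEATS2) libraries. Both groups were infected with pLKO lentivirus for 48 h in polybrene at 8 µg per ml. They were then held in puromycin at 2 µg per ml for 4 to 7 days according to the labels. The controls therefore also carried a vector and a drug-resistance gene. The paper's methods give a shorter range of days in puromycin, so the length of selection is uncertain. The labels of the KD libraries do not name the shRNA, and a selected population of cells rather than a clone was sequenced. The paper states that its duplicate RNA-seq used the shRNA with an efficient KD, and that an independent, weaker shRNA was also sequenced. No label here assigns a library to that weaker shRNA, so effects of YEATS2 loss cannot be told apart from other effects of the shRNA used. Mapped reads were counted per gene by the authors, and counts are given here scaled to the mean library size by the TMM method of edgeR.

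The 4 libraries held 34718921 to 39417787 counted reads, and the 10 genes took 0.0713% to 0.0748% of them. YEATS2 itself had 4482 and 4104 scaled reads in shCtrl and 665 and 673 in shYEATS2 libraries, a log2 fold change of -2.68 (standard error 0.10). Of the H1299 markers, VIM, KRT8 and KRT18 were among the listed genes, CDH1 and EPCAM were not, and none of 8 markers of blood, endothelial, stromal and liver cells was listed, where listing took at least 101 reads in some library. Over all genes of the experiment, 12.5% were called lower and 12.9% higher, 25.3% in all. A call is a false discovery rate (FDR, by the Benjamini-Hochberg method over all genes) under 0.01 in the quasi-likelihood test of edgeR, which all FDR values below come from unless another test is named. Had libraries been scaled by their total counts, the typical gene (median log2 fold change) would have moved from -0.0019 to 0.12, and the calls from 1581 lower and 1630 higher to 1166 lower and 2363 higher. Values below are on the TMM scale.

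Of the 10 genes, 3 fell (BCL2L2, PMAIP1 and BAX), 1 rose (BCL2L11) and 6 did not pass the test after YEATS2 KD. The background shares are 12.5% for lower and 12.9% for higher calls. The family thus did not move as a block, and their median log2 fold change was -0.28 (-0.16 with total counts) against -0.0019 over all genes tested. The KD and control libraries did not overlap in any of the 10 genes, which held for 79.6% of all genes. Reads cannot tell fewer cells with an mRNA from less of it per cell. They measure mRNA and not protein. By flow cytometry, the paper reported little or no defect in apoptosis after YEATS2 KD.

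The DNA at the start of 3 of the genes that changed is shown so that the windows can be set beside the changes below. They run from 250 bases before to 50 bases after the annotated RefSeq start (GRCh38.p14), and windows were matched for 8 of the 10 genes, all but BCL2L2 and MCL1. Capitals mark, on either strand, the GC box GGGCGG, the CCAAT box CCAAT, the E-box CACGTG, the FOXO element GTAAACA and the cAMP response element TGACGTCA. The marked matches do not overlap each other in these windows. The BCL2L11 window lies at chr2:111120664-111120963 on the plus strand, that of PMAIP1 at chr18:59899746-59900045 on the plus strand and that of BAX at chr19:48954625-48954924 on the plus strand.
BCL2L11: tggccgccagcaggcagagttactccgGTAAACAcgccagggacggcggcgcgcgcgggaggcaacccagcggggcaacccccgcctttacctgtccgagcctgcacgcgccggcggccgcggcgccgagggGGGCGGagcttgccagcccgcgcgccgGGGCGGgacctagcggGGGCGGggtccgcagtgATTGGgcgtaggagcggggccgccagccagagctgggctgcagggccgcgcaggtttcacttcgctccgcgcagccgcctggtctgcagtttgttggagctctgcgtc
PMAIP1: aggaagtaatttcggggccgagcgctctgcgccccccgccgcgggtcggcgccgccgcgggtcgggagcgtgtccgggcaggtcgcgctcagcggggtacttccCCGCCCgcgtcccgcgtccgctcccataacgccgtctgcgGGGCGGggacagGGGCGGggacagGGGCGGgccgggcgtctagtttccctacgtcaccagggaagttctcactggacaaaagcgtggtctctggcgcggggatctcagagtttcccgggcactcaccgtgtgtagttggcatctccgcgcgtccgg
BAX: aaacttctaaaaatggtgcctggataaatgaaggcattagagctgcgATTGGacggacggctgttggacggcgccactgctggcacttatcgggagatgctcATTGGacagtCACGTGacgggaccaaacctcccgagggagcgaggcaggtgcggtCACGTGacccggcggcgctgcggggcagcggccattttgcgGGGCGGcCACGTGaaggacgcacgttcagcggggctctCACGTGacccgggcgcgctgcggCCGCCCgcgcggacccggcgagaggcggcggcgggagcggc

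The BCL2L11 window held 3 GC boxes at 118, 91 and 75 bases before the start, 1 inverted CCAAT box at 58 bases and 1 FOXO element at 223 bases. A FOXO element was present in 2.45% of the 13359 windows of genes in the count table, a CCAAT box in 34.8% and at least 3 GC boxes in 26.4%. The PMAIP1 window held 4 GC boxes, between 146 and 82 bases before the start, which 15.6% of these windows reached, and none of the other marked motifs. The BAX window held 4 E-boxes, at 138, 93, 45 and 14 bases before the start, as many as in 4 of the 13359 windows. At least 1 E-box was present in 9.48% of them. The BAX window also held 2 GC boxes and 2 inverted CCAAT boxes. Windows of BID, which did not pass the test, held up to 4 GC boxes, and some of them held 1 E-box. No window of the 8 matched genes held a cAMP response element, which 2.80% of the windows did, and of the motifs marked here only the common GC box was present in all 3 windows shown. A match describes letters only, and binding was not measured at these windows here.

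Among the BH3-only genes the changes went in opposite directions. BCL2L11 encodes BIM, which binds all anti-apoptotic members and can activate BAX and BAK1, and lies on chromosome 2 of GRCh37 from 111876955 to 111926021. It had 522 and 588 scaled reads in the shCtrl libraries and 1000 and 1490 in the shYEATS2 libraries. Both KD libraries were higher than both controls, and the KD libraries differed from each other far more than the controls did. The mean rose from 555 ± 46.8 to 1245 ± 346 (SD, n = 2 each), a log2 fold change of 1.17 (standard error 0.20) at an FDR of 0.00438 (edgeR). This value was higher than that of 95.7% of all genes. Leaving out shYEATS2 replicate 2 gave 0.85 and leaving out shYEATS2 replicate 1 gave 1.42. Without shCtrl replicate 1 the value was 1.08 at an FDR of 0.0105, just over the threshold.

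PMAIP1 encodes NOXA, a BH3-only protein that binds mainly MCL1 and marks it for degradation, and lies on chromosome 18 from 57567228 to 57571537. Its scaled reads were 688 and 843 in shCtrl and 317 and 287 in shYEATS2 libraries. The lowest control was over 2 times the highest KD library. The mean fell from 765 ± 110 to 302 ± 21.2 (SD, n = 2 each), a log2 fold change of -1.34 (standard error 0.15) at an FDR of 0.00136 (edgeR). Only 1.86% of all genes had a lower value. PMAIP1 stayed past the threshold in all 14 alternative settings, between -1.48 and -1.18.

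The contrast between BCL2L11 and PMAIP1 can be read within a library, where library scaling plays no part. There were 0.759 and 0.698 reads of BCL2L11 for each read of PMAIP1 in the shCtrl libraries and 3.15 and 5.18 in the shYEATS2 libraries. PMAIP1 therefore had more reads than BCL2L11 in both controls and fewer in both KD libraries. The pairs of genes set against each other here and below were chosen with their values known, so no test is given. Relative to MCL1, reads of BCL2L11 went from 0.0419 and 0.0487 in shCtrl to 0.0933 and 0.131 in shYEATS2 libraries, and those of PMAIP1 went from 0.0551 and 0.0698 to 0.0296 and 0.0253.

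BAD and BID, the other BH3-only genes, had higher values in both KD libraries but did not pass the test. BAD, which binds BCL-xL and is held inactive by phosphorylation, had 868 and 938 scaled reads in shCtrl and 1104 and 1354 in shYEATS2 libraries. Its log2 fold change was 0.44 with a 95% confidence interval from 0.13 to 0.76 and an FDR of 0.0295 (edgeR). BID, which caspase-8 cleaves to link death receptors to mitochondria, had 1490 and 1308 scaled reads in shCtrl and 1945 and 1590 in shYEATS2 libraries, with a log2 fold change of 0.34 (95% interval 0.03 to 0.65) and an FDR of 0.0711. The distance between shCtrl replicate 1 and shYEATS2 replicate 2 was small for BID, so its separation of the groups rests on little. BAD lies on chromosome 11 from 64037302 to 64052176 and BID on chromosome 22 from 18216904 to 18257536.

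**Figure D1:**
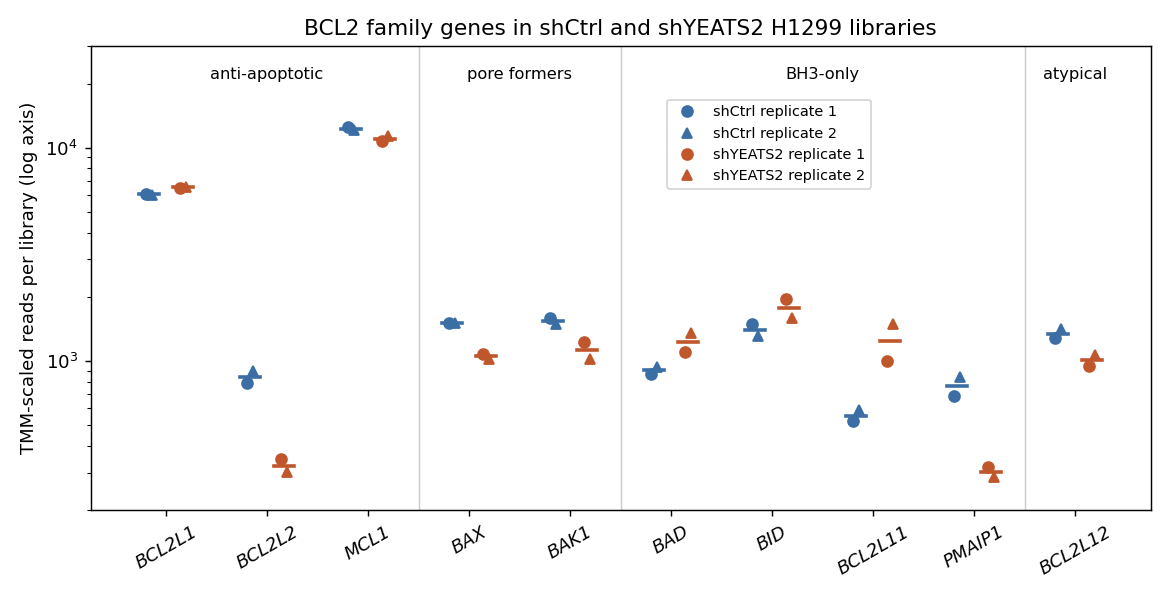
Scaled reads of the 10 genes in each library on a log axis, with shCtrl in blue, shYEATS2 in orange, circles for replicate 1, triangles for replicate 2 and horizontal lines at the group means. BCL2L2 and PMAIP1 sit lowest in the KD libraries, at 287 to 346 reads, and the KD libraries of BCL2L11 stand apart from each other at 1000 and 1490.

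The anti-apoptotic genes differed in how they responded. BCL2L2, which encodes BCL-w, had 788 and 895 scaled reads in the shCtrl libraries and 346 and 301 in the shYEATS2 libraries. Both KD libraries lay below both controls by more than the replicates of either group differed. The mean fell from 841 ± 75.9 to 323 ± 32 (SD, n = 2 each), a log2 fold change of -1.38 (standard error 0.14) at an FDR of 0.00116 (edgeR), and 1.64% of all genes had a lower value. It stayed past the threshold in all 14 alternative settings. BCL2L2 lies on chromosome 14 from 23767999 to 23780960. On the same strand, 16.8% of its exonic bases are shared with the readthrough gene BCL2L2-PABPN1, so reads there may have been left out of the counts.

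MCL1 and BCL2L1 carried most of the family's reads and moved little. MCL1, a short-lived protein that holds BAK1 and BIM, had 12469 and 12072 scaled reads in shCtrl and 10721 and 11356 in shYEATS2 libraries. Its log2 fold change was -0.15 with a 95% interval from -0.37 to 0.07 and an FDR of 0.206 (edgeR), and it was -0.03 with total-count scaling. BCL2L1 had 6088 and 6033 scaled reads in shCtrl and 6473 and 6573 in shYEATS2 libraries, with a log2 fold change of 0.11 (95% interval -0.10 to 0.32) and an FDR of 0.345. The groups did not overlap for either gene, yet the distances were small, and the intervals reach no further than 0.37 in size on either side for MCL1 and BCL2L1. Gene counts do not separate the long, anti-apoptotic mRNAs of these genes from their short, pro-apoptotic splice forms. MCL1 lies on chromosome 1 from 150533371 to 150552214 and BCL2L1 on chromosome 20 from 30252255 to 30311792.

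BCL2L2 declined relative to both of these abundant genes. There were 0.0632 and 0.0741 reads of BCL2L2 per read of MCL1 in shCtrl and 0.0323 and 0.0265 in shYEATS2 libraries. Against BCL2L1 the ratios were 0.129 and 0.148 in shCtrl and 0.0534 and 0.0457 in shYEATS2 libraries. Both denominators moved little, so these ratios restate the fall of BCL2L2 and are no separate result.

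The pore formers were both lower in the KD libraries, and BAX passed the test. BAX had 1504 and 1514 scaled reads in shCtrl and 1076 and 1026 in shYEATS2 libraries. The controls were nearly equal, and both KD libraries were lower by far more than the replicates of either group differed. The mean fell from 1509 ± 7.22 to 1051 ± 35.6 (SD, n = 2 each), a log2 fold change of -0.52 (standard error 0.10) at an FDR of 0.00609 (edgeR). With total-count scaling the value was -0.40 and the FDR 0.0141, so the call did not hold there. It was also lost without shCtrl replicate 1 (FDR 0.0360), shCtrl replicate 2 (0.0380) or shYEATS2 replicate 2 (0.0160). BAX lies on chromosome 19 from 49458072 to 49465055, where no other annotated gene shares its exons.

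BAK1 had 1592 and 1494 scaled reads in shCtrl and 1232 and 1025 in shYEATS2 libraries. The KD libraries were lower but differed from each other by more than the controls did. The log2 fold change was -0.45 with a 95% interval from -0.74 to -0.16 and an FDR of 0.0216 (edgeR), and without shYEATS2 replicate 1 it was -0.59 with an FDR of 0.00616. Read for read, BAX stood at 0.945 and 1.01 of BAK1 in shCtrl and 0.873 and 1.00 in shYEATS2 libraries, so the groups overlapped in this ratio. Against BCL2L1, BAX went from 0.247 and 0.251 reads in shCtrl to 0.166 and 0.156 in shYEATS2 libraries. BAK1 lies on chromosome 6 from 33540324 to 33548070.

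BCL2L12, a less typical relative that has been described as an inhibitor of effector caspases, had 1280 and 1410 scaled reads in shCtrl and 945 and 1072 in shYEATS2 libraries. The log2 fold change was -0.41 with a 95% interval from -0.69 to -0.14, and the FDR of 0.0242 (edgeR) did not pass 0.01. It lies on chromosome 19 from 50168399 to 50177173.

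**Figure D2:**
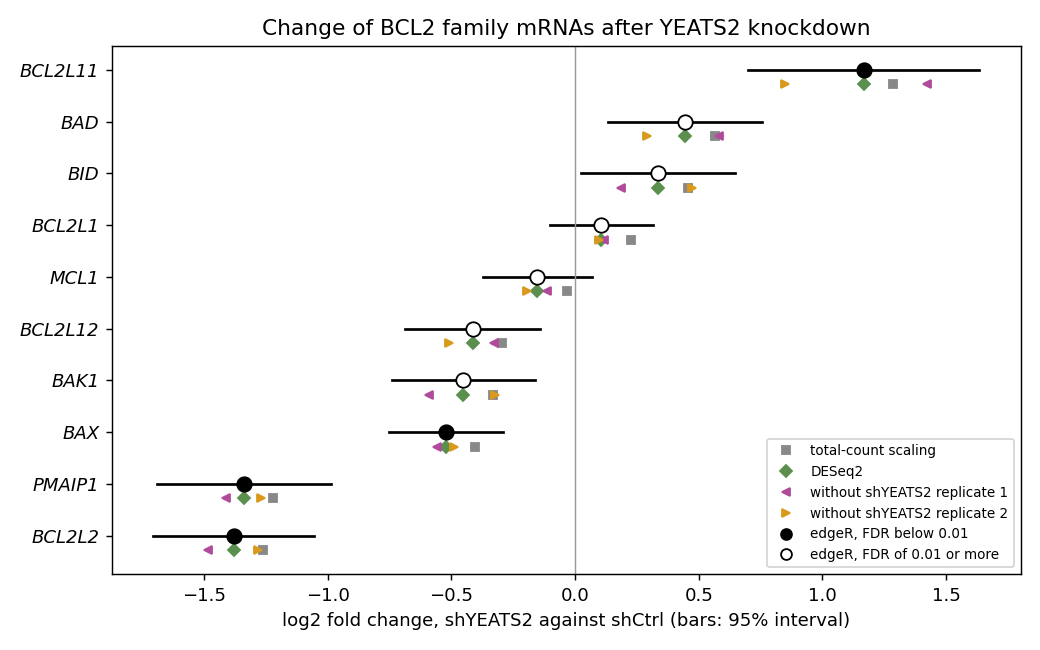
Log2 fold change of each gene in shYEATS2 against shCtrl libraries, with 95% intervals from edgeR's quasi-likelihood fit, filled circles for an FDR below 0.01 and small symbols for total-count scaling (squares), DESeq2 (diamonds) and fits without shYEATS2 replicate 1 or 2 (left and right triangles). BCL2L2 (-1.38), PMAIP1 (-1.34) and BCL2L11 (1.17) stand farthest from 0, and no alternative shown turned the sign of any gene.

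By the exactTest function of edgeR, the test that the study's methods name, 19.7% of all genes were lower and 20.5% higher on the TMM scale. With it 5 of the 10 genes were called lower, BAK1 (FDR 0.00503) and BCL2L12 (FDR 0.00837) joining the 3 above, and 1 was called higher.

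Several of the 10 genes share exonic bases with a gene on the other strand, which the TruSeq v2 kit does not tell apart. The share was 41.3% for BCL2L1 (with the non-coding ABALON), 25.9% for BCL2L12 (with IRF3), 23.7% for BAD (with GPR137) and 10.8% for BCL2L11 (with the non-coding MIR4435-2HG). The partner of BCL2L11 was counted at 1794 and 1754 scaled reads in shCtrl and 1849 and 1742 in shYEATS2 libraries, with a log2 fold change of 0.02. The log2 fold changes of IRF3 and GPR137 were -0.19 and 0.21. Each had the sign of its partner in the family (BCL2L12 -0.41, BAD 0.44) and was smaller in size. Mean scaled reads in shCtrl were 1887 for IRF3 against 1345 for BCL2L12, and 2115 for GPR137 against 903 for BAD. How far shared reads entered the counts was not tested.

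**Figure D3:**
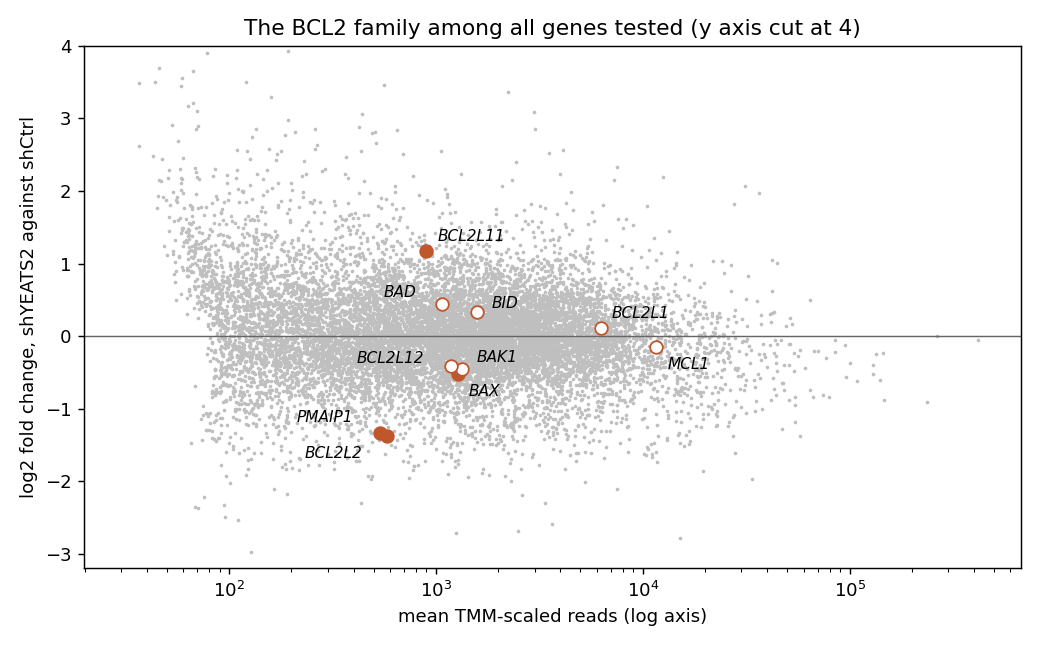
Mean scaled reads (log axis) and log2 fold change of all 12676 genes in grey, with the 10 BCL2 family genes in orange, filled where the FDR was below 0.01 (12 genes above a value of 4 are not drawn). BCL2L11 lies above 95.7% of genes, only 1.86% and 1.64% of genes lie below PMAIP1 and BCL2L2, and MCL1 and BCL2L1 lie near 0 at the highest counts.

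Per length of exon, the anti-apoptotic mRNAs MCL1 and BCL2L1 led the family in both groups. In RPKM (reads per kilobase of exon, further divided by library size), the level of MCL1 was 54.2 ± 1.24 in shCtrl and 48.7 ± 1.98 in shYEATS2 libraries, and that of BCL2L1 was 39.6 ± 0.26 and 42.7 ± 0.46 (SD, n = 2 each). Next in shCtrl came BAK1 at 19.2 ± 0.87, BAX at 16.0 ± 0.077, BAD at 14.5 ± 0.80 and BCL2L12 at 13.0 ± 0.89. PMAIP1 at 9.61 ± 1.38 and BID at 8.69 ± 0.80 could not be told apart, since their libraries overlapped, and BAD and BCL2L12 differed by less than the sum of their SDs. BCL2L2 at 4.77 ± 0.43 and BCL2L11 at 2.26 ± 0.19 were lowest.

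The order of the lower members changed in the KD libraries. BAD, now behind only MCL1 and BCL2L1, stood at 19.8 ± 2.83, followed by BAK1 at 14.0 ± 1.82, BAX at 11.2 ± 0.38, BID at 11.0 ± 1.56 and BCL2L12 at 9.78 ± 0.87. The libraries of BAX and BID overlapped, as did those of BID and BCL2L12, whereas both BAX libraries lay above both BCL2L12 libraries. BCL2L11, the lowest in shCtrl, stood at 5.07 ± 1.41, above PMAIP1 at 3.80 ± 0.27 and BCL2L2 at 1.83 ± 0.18, although the lower BCL2L11 library (4.07) was close to the higher PMAIP1 library (3.99). The order depends on the length used. With the Ensembl canonical transcript in place of all exonic bases, an alternative added after the data had been seen, BAX at 52.1 and BCL2L12 at 34.7 came next after MCL1 and BCL2L1 in shCtrl, and BAK1 at 19.5 came after BAD at 26.7, while MCL1 and BCL2L1 still led and BCL2L11 was still lowest.

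**Figure D4:**
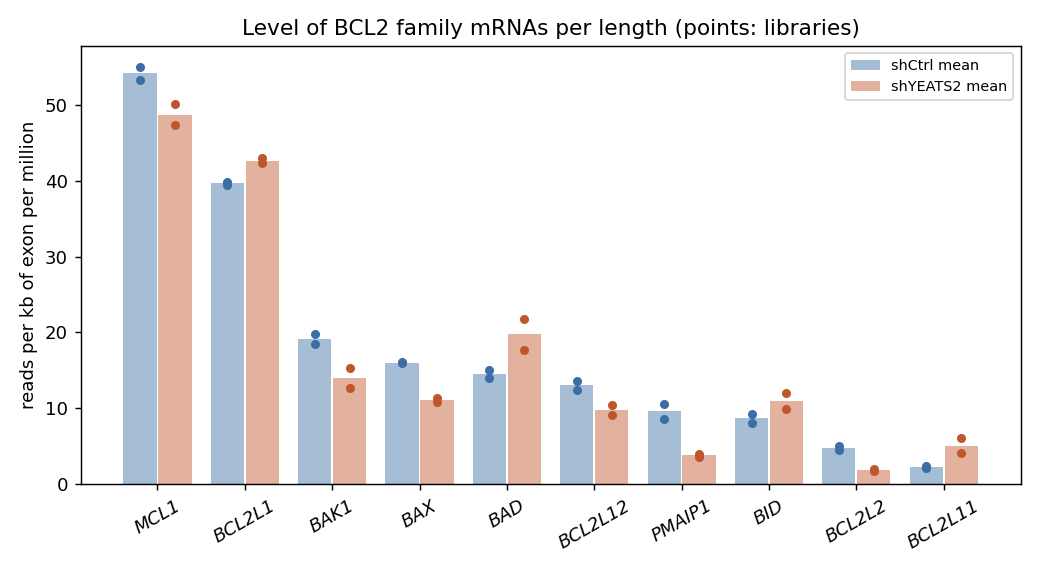
RPKM of the 10 genes, ordered by their shCtrl mean, with bars for the group means and points for the libraries. The group means of MCL1 and BCL2L1 are 39.6 or above in both groups, and those of every other gene are 19.8 or below.

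Other genes of the pathway were described by lists, 64 of whose 72 genes were among the genes counted. Of these 64, 7 were called lower and 11 higher, against backgrounds of 12.5% and 12.9%, with a median log2 fold change of 0.05 over the lists and -0.0019 over all genes. These values were part of the same fit across all genes. The same shares, 12.5% lower and 12.9% higher, are the background for the counts of each list below.

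Of 15 other BCL2 relatives, 11 were listed, 3 of them rose and none was called lower (median log2 fold change 0.24). BBC3, which encodes the BH3-only protein PUMA, had 151 and 215 scaled reads in shCtrl and 456 and 700 in shYEATS2 libraries, with a log2 fold change of 1.66 and an FDR of 0.00344 (edgeR). HRK, another BH3-only gene, had 374 and 427 scaled reads in shCtrl and 781 and 969 in shYEATS2 libraries, with a log2 fold change of 1.13 and an FDR of 0.00216. BCL2L13, a mitochondrial relative linked to mitophagy, rose by 0.63 on the log2 scale, from 4398 ± 12.5 to 6790 ± 512 scaled reads (SD, n = 2 each). BCL2 itself was scarce, at 167 and 179 scaled reads in shCtrl and 73.7 and 98.1 in shYEATS2 libraries. Its log2 fold change was -1.0 and its FDR 0.0110 (edgeR), just short of the threshold. BOK, a pore-forming relative, had a log2 fold change of -0.20 and an FDR of 0.117. BCL2A1, BCL2L10, BCL2L14 and BCL2L15 were not among the listed genes.

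Downstream of the membrane, 3 of 12 genes of the mitochondrial pore and apoptosome list fell and none was called higher. The list's median was -0.11 on the TMM scale and 0.0081 with total counts, so its sign depends on the scaling. CYCS, which encodes cytochrome c, had 10406 and 10070 scaled reads in shCtrl and 5454 and 4010 in shYEATS2 libraries, a log2 fold change of -1.11 with an FDR of 0.00228 (edgeR). HTRA2, an antagonist of inhibitor of apoptosis proteins, fell by 0.67 and VDAC3, an outer membrane channel, fell by 0.61 on the log2 scale. In the list of caspases and inhibitor of apoptosis genes, 12 of 14 were listed, 3 fell and none was called higher (median -0.34). BIRC5, which encodes survivin, a protein that also acts in mitosis, went from 6311 ± 317 to 2437 ± 30.8 scaled reads (SD, n = 2 each), a log2 fold change of -1.37 with an FDR of 0.000793. DFFA, the inhibitor of the apoptotic nuclease, fell by 1.01 and the effector caspase CASP6 fell by 0.70 on the log2 scale.

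In the death receptor arm 10 of 11 genes were listed, 2 rose and none was called lower (median 0.17), where 12.9% of all genes were called higher. The list also held lower values that did not pass the test, down to a log2 fold change of -0.55. TNFRSF10D, a decoy receptor for TRAIL, had 1106 and 977 scaled reads in shCtrl and 3022 and 3197 in shYEATS2 libraries, a log2 fold change of 1.58 with an FDR of 0.000793 (edgeR). TNFRSF10B, a signalling receptor for the same ligand, rose by 0.55 on the log2 scale, with an FDR of 0.00630.

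Among factors that act on BCL2 family mRNAs or proteins, 19 of 20 genes were listed, 6 rose and 1 fell (median 0.19). The largest changes were in TRIB3 (log2 fold change 2.56, FDR 0.00181) and DDIT3 (2.15, FDR 0.00402), which belong to the stress response downstream of ATF4 and were tested with edgeR like the rest. FBXW7, part of a ubiquitin ligase that can target MCL1, rose by 1.00 on the log2 scale. TP73, a transcription factor that can activate PMAIP1 and BBC3, went from 364 ± 38.8 to 161 ± 5.74 scaled reads (SD, n = 2 each), a log2 fold change of -1.17 with an FDR of 0.00232. In TRIB3, DDIT3, BBC3 and BCL2L11 alike, shYEATS2 replicate 2 was higher than shYEATS2 replicate 1 and shCtrl replicate 2 was higher than shCtrl replicate 1. This order was not particular to them. It held in BAD, HRK and BCL2L13, also higher in KD libraries, and in BCL2L12, TP73, BIRC5 and BCL2, which were lower. It did not hold in PMAIP1 or FBXW7, among others. Over all genes, differences between replicates 1 and 2 correlated at 0.402 between the groups. For DDIT3 the scaled reads were 594 and 1130 in shCtrl and 2785 and 4844 in shYEATS2 libraries, and for TRIB3 they were 966 and 1418 in shCtrl and 4862 and 9202 in shYEATS2 libraries. The part of this difference between replicates in the rise of BCL2L11 was not tested.

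**Figure D5:**
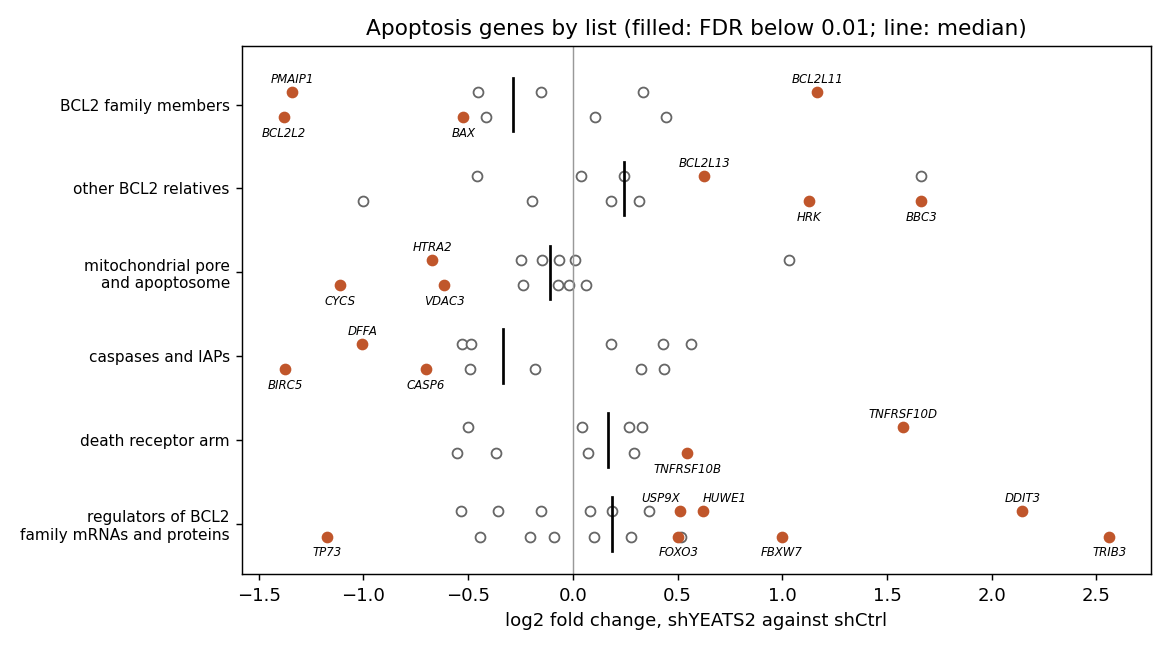
Log2 fold change of the 10 BCL2 family genes and of the listed genes of 5 apoptosis lists, 1 point per gene, filled and named where the FDR was below 0.01, with a vertical line at each median. The 3 filled points among other BCL2 relatives and the 2 in the death receptor arm lie above 0, and the 3 in each of the 2 lists of mitochondrial and caspase genes lie below it. Open points lie on both sides of 0 in each of these lists. Over all genes 12.5% were called lower and 12.9% higher.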

How the data were processed

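Counts came from RNA-seq of 2 shCtrl and 2 shYEATS2 libraries. Groups and replicate numbers were taken from the sample titles, and every column of counts was assigned. Per the study's methods the authors used the RNA-Seq unified mapper for alignment to hg19, and they deposited whole-number read counts per gene from HTSeq (version 0.6.1p1 in the submitters' processing notes, which also name TopHat2 2.0.10). The annotation is not given in the sources used here. The log2 fold change, p-value and FDR columns of the authors' own comparison, deposited beside the counts, were not used.

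A gene was tested if 2 or more libraries had 10 or more reads, and all 12676 passed. The test was the quasi-likelihood test of edgeR 4.0.16 under R 4.3.3, on TMM-scaled libraries and with no blocking on replicate number, and p-values were adjusted over all genes by the Benjamini-Hochberg method (FDR under 0.01). Intervals are 95% intervals of that fit. Alternatives were DESeq2 (1.42.0), exactTest, other scalings and filters, a replicate block, an FDR under 0.05 and each library left out in turn. exactTest with total counts was added after the data had been seen.

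The labels do not say whether the replicates came from separate cultures. The study calls them independent biological replicates. The p-values rest on the spread between these 2 libraries per group, with the variance of each gene drawn toward that of other genes (6.8 degrees of freedom in all). Counts of the 2 libraries differed by more than sampling noise (chi-square per degree of freedom 17.9 in shCtrl and 38.0 in shYEATS2). Gene positions and exon lengths come from GENCODE 44 on GRCh37, which matched 98.3% of identifiers. Promoter windows come from RefSeq on GRCh38.p14, and no coordinate was converted. The 10 genes and the apoptosis lists were chosen with earlier results of these data known. Named genes were YEATS2, the 10 genes, BCL2, BBC3 and BOK, and in each list up to 4 called genes with the largest change. 1 further gene of that rule is not reported here. The 12 ChIP-seq samples were not analysed here.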

Additional observations from a re-analysis of the deposited data

How the results depend on the processing

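Of the 14 alternative settings, the FDR under 0.05 and the absence of a filter on counts left the main fit unchanged. Neither could turn a sign or lose a call, and calls gained at the FDR under 0.05 follow from the looser cut alone. The sign of all 10 genes held in all 14 settings. BCL2L2 and PMAIP1 stayed past the threshold in each, and MCL1 and BCL2L1 in none. Of 140 results for single genes, 5 lost the call (BAX in 4 settings, BCL2L11 in 1) and 12 gained it (BAK1 and BAD in 4 each, BCL2L12 in 3, BID in 1). With exactTest on the TMM scale, 2497 genes were lower and 2596 higher, 5 of the 10 family genes were lower, and 14 of the other apoptosis genes were lower and 17 higher. At an FDR under 0.05 these counts were 3011 and 3093 for all genes, 5 and 2 for the family and 17 and 20 for the other apoptosis genes. DESeq2 called 11 of the 64 other apoptosis genes lower and 15 higher, beside 2190 and 2159 of all 12676 genes. Total-count scaling called 6 of the 64 lower and 20 higher, beside 1166 and 2363 of all genes. exactTest with total counts was added after the data had been seen. It called 1778 of all genes, 3 of the family and 9 of the other apoptosis genes lower. Higher calls with it were 3464, 3 and 21.

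With the replicate block, 2715 genes were lower and 2742 higher, the family had 5 lower and 2 higher calls, and the other apoptosis genes had 15 and 17. Deviations of same-numbered libraries correlated at 0.402, but the labels do not say that a number pairs libraries, so the block is given here only.

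With each library left out in turn, where the lone library of a group is assumed to vary like the others, 850 to 2032 of all genes were lower and 775 to 1991 higher. In the family 2 to 4 were lower and 0 to 2 higher, with 0 higher without shCtrl replicate 1 and 2 higher without shYEATS2 replicate 1. Of the other apoptosis genes 3 to 9 were lower and 6 to 15 higher, with 3 and 6 without shCtrl replicate 2, and YEATS2 lay between -2.74 and -2.62. The cause of these differences was not tested, beyond the fewer libraries in such fits. Not filtering on counts changed nothing, since all genes passed. With 2 libraries per group a log2 fold change had a standard error of 0.12 at the median over genes. The standard error was 0.092 for MCL1 and 0.088 for BCL2L1, and changes as small as theirs were not detectable here.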
